A study of Mus musculus with 4 samples.

Results

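The transcripts described here are those of 39 genes of complement and coagulation, chosen by symbol from a list of plasma cascade genes, and all 39 were found among the 24138 rows of the expression table. They were measured by bulk RNA sequencing of poly(A)-enriched libraries from 4 livers, numbered 1 to 4 in the labels, of male C57BL/6J mice at 18 weeks of age. Each mouse had been given the FAT-MASH diet, a diet model of metabolic dysfunction-associated steatohepatitis (MASH, fatty liver with inflammation), and resolvin D1 (RvD1), a lipid mediator of the resolution of inflammation. The 4 livers form 1 group that shares sex, strain, age, diet and treatment, and no untreated, diet-only or vehicle-treated liver was analysed here, so the values describe levels and their spread between animals and carry no test of RvD1 or of the diet. The dose and duration of RvD1 are not given in the sources used here.

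Complement and coagulation are cascades of plasma proteins, many of them serine proteases secreted as inactive precursors, in which each step cleaves and activates the next. Complement is started by antibody-bound C1q (classical pathway), by lectins that bind microbial sugars (lectin pathway) or by spontaneous activation of C3 (alternative pathway), and ends in a pore assembled from C5 to C9. Coagulation is started by tissue factor or by contact with charged surfaces, and ends when thrombin turns fibrinogen into fibrin. The hepatocyte makes most of these proteins, whereas C1q and properdin come mainly from macrophages and other myeloid cells and factor VIII from sinusoidal endothelium. Several members, among them fibrinogen and C3, are acute phase proteins, and interleukin 6 is the main inducer of fibrinogen transcription.

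Values are FPKM, fragment numbers divided by transcript length and by library size, a unit that allows levels of different genes to be set side by side. Where 4 values follow a gene's name they are those of livers 1, 2, 3 and 4, in that order. Every member was above 0 in every liver, and all 39 had a mean of at least 1 FPKM, the level above which a gene is called expressed here, against 43.7% of all rows. A mean of at least 50 FPKM was found for 32 of the 39, against 5.83% of all rows. The estimated depth was 18.8M to 20.1M fragments per library. The summed FPKM was 524394, 522052, 516816 and 570681 in livers 1 to 4, so liver 4 lay above the other libraries in scale, and counts that rest on which liver is highest are given under other scalings as well. Hepatocyte markers other than Alb were abundant in each liver. Alb was listed at 0 in all 4 livers, although it is among the most abundant hepatocyte transcripts, so its 0 is not read as absence.

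The promoters of 5 members are shown because the fibrinogen genes form 1 cluster and encode 1 protein, and because C3 and Cpb2 are the most abundant of the 7 members whose values differed most between livers. Each runs from 250 bases before to 50 bases after the annotated start, in RefSeq's GRCm38.p6 build, 5′ to 3′ on the strand of the gene. Capitals mark the motifs TTGCNNAAT (bound by C/EBP factors), TTCNNNGAA (bound by STAT3) and CTGGGA (the interleukin 6 response element), searched on both strands.
Fga (chr3:83025903-83026202, plus strand): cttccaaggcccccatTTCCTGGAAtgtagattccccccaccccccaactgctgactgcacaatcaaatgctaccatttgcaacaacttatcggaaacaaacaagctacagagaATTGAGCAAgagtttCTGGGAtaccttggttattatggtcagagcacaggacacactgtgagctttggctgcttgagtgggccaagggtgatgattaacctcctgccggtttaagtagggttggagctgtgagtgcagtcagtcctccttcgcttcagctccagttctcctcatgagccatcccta
Fgb (chr3:83049814-83050113, minus strand): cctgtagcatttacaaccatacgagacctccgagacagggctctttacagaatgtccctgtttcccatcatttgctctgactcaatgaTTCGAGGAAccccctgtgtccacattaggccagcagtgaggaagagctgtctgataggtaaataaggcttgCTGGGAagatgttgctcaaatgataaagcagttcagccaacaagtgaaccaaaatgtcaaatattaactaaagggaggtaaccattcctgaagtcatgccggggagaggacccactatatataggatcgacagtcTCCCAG
Fgg (chr3:83007474-83007773, plus strand): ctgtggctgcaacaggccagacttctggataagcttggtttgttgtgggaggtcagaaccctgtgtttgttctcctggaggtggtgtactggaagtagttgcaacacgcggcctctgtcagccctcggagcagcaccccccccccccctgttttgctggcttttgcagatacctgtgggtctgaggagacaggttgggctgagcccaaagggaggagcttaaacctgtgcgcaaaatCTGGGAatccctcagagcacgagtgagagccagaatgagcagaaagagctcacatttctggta
C3 (chr17:57228087-57228386, minus strand): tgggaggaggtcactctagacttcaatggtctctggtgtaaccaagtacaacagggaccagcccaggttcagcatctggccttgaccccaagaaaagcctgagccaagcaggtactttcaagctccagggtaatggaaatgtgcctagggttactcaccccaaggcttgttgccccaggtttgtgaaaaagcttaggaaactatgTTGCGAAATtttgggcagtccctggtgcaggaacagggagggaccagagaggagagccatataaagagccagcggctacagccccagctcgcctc
Cpb2 (chr14:75242037-75242336, plus strand): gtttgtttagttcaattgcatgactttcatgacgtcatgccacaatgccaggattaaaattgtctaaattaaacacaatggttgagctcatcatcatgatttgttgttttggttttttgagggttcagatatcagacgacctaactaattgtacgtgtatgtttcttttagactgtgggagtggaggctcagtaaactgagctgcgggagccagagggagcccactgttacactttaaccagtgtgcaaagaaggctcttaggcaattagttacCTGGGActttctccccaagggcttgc

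RefSeq windows were at hand for 30 of the 39 members. TTGCNNAAT was found in 4 of the 30, Fga, C3, C9 and F9, against 2.40% of all 32851 promoter windows. TTCNNNGAA, which reads the same on both strands, was found in 5 of the 30, Fga, Fgb, C8a, Masp2 and F9, against 8.30% of all windows. CTGGGA was found in 15 of the 30, against 31.8% of all windows, and all 3 fibrinogen windows hold it. In Masp2 and F9 the CTGGGA match lies inside the TTCNNNGAA match. Fga was the only 1 of the 5 printed windows with all 3 motifs, and Cpb2 held CTGGGA only, 25 bases after its start. A match describes the letters of the window and not a site in use.

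The motif of the hepatocyte factor HNF1 was found in 3 of the 30 windows, against 0.399% of all windows. The longer direct repeat bound by HNF4, with 1 base left free, was found in 1, against 0.0274% of all windows, and with no base left free in 0, against 0.0152%. These 4 members encode a complement inhibitor (C4bp), the carrier subunit of factor XIII (F13b), complement C5 (Hc) and factor VII (F7). The bases from 100 to 11 before the start are shown for them, with the HNF1 match, or for F7 the HNF4 match, in capitals.
C4bp (chr1:130661629-130661718, minus strand): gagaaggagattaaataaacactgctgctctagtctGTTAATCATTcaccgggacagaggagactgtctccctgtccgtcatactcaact
F13b (chr1:139501607-139501696, plus strand): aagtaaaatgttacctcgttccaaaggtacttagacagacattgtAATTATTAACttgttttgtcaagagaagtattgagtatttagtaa
Hc (chr2:35061423-35061512, minus strand): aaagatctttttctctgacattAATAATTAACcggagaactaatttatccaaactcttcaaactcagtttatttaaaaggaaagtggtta
F7 (chr8:13025934-13026023, plus strand): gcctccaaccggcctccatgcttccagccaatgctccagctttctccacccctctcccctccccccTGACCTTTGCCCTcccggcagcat

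Of the FPKM summed over all genes the members made up 2.32%, 2.81%, 2.39% and 2.57%, a mean of 2.52 ± 0.221% (SD, n = 4). Their median mean level was 153 FPKM, against 7.83 FPKM over all expressed genes, and 28 of the 39 lay at or above the 90th percentile of expressed genes. Levels ran from F8 at 1.14 ± 0.198 FPKM to Fgg at 1752 ± 246 FPKM (each SD, n = 4). The 3 fibrinogen transcripts alone made up 35.6 ± 0.899% of the summed level of the members (SD, n = 4).

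**Figure D1:**
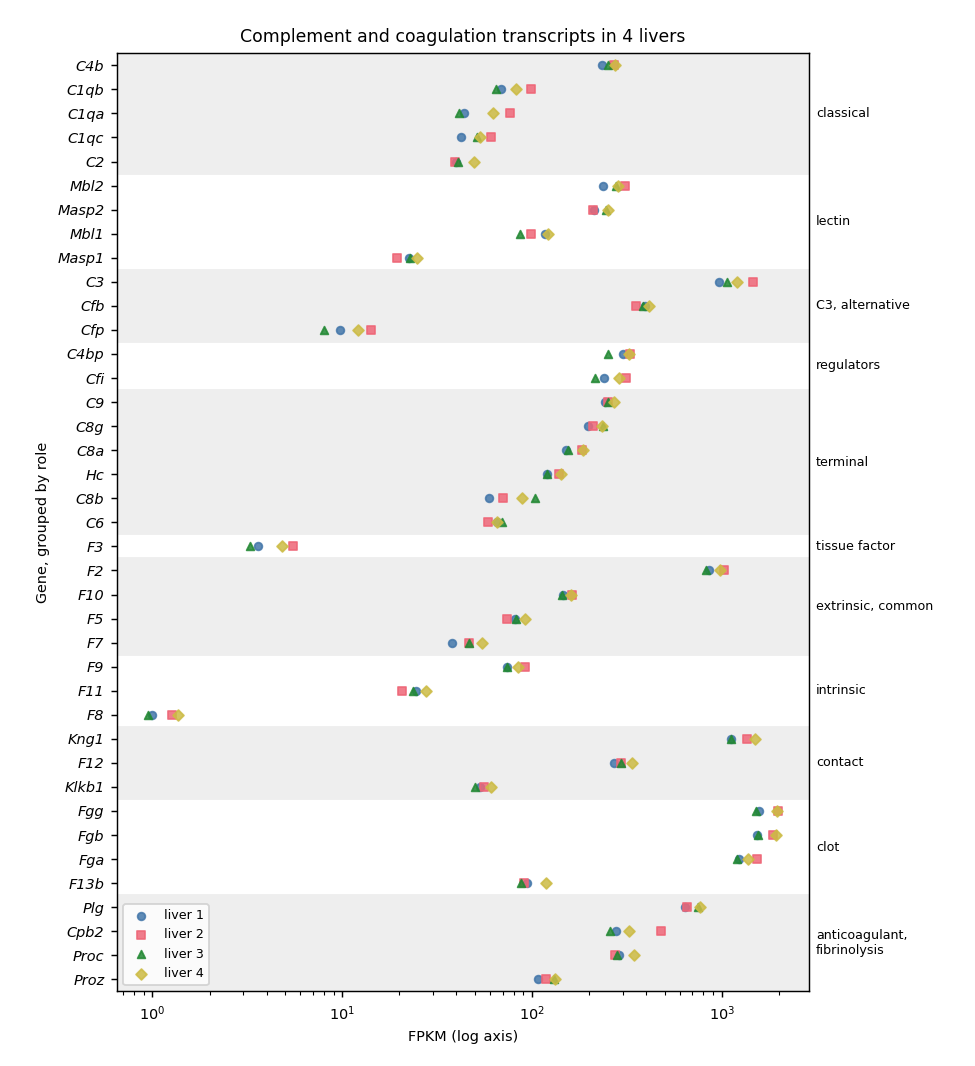
FPKM of the 39 members on a log axis, 1 point per liver, with genes grouped by role and sorted by mean within each group. The fibrinogen genes, Kng1 and C3 lie at 967 FPKM or more in every liver, while Cfp, F3 and F8 have the 3 lowest means.

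The spread of the members between livers was near that of other genes with a pseudocount of 1. Measured as the SD of log2(FPKM + 1) between livers, it had a median of 0.15 over the members and of 0.16 over all 10541 expressed genes, and ranged from 0.06 for C9 to 0.41 for C1qa. With a pseudocount of 5, which lowers the SD of low genes, the medians were 0.15 over the members and 0.11 over all expressed genes. Among genes of 50 FPKM or more, with a pseudocount of 1, they were 0.15 over 32 members and 0.16 over all 1407 genes. A highest-to-lowest ratio of at least 1.5 was found for 7 of the 39 members (17.9%), against 28.3% of all expressed genes and 14.1% of the 1407 genes of 50 FPKM or more. The 7 were C1qa, C1qb, C3, C8b, Cfp, Cpb2 and F3, all of them also past 1.5 under the other 2 scalings. A ratio of 2 was reached by 0 of the 39, against 6.38% of expressed genes and 3.48% of those of 50 FPKM or more. When liver 2 was left out, 2 members were past 1.5, C8b and Cfp, against 18.9% of expressed genes, and without liver 3 the number was 4, C1qa, C3, Cpb2 and F3, against 16.3%.

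**Figure D2:**
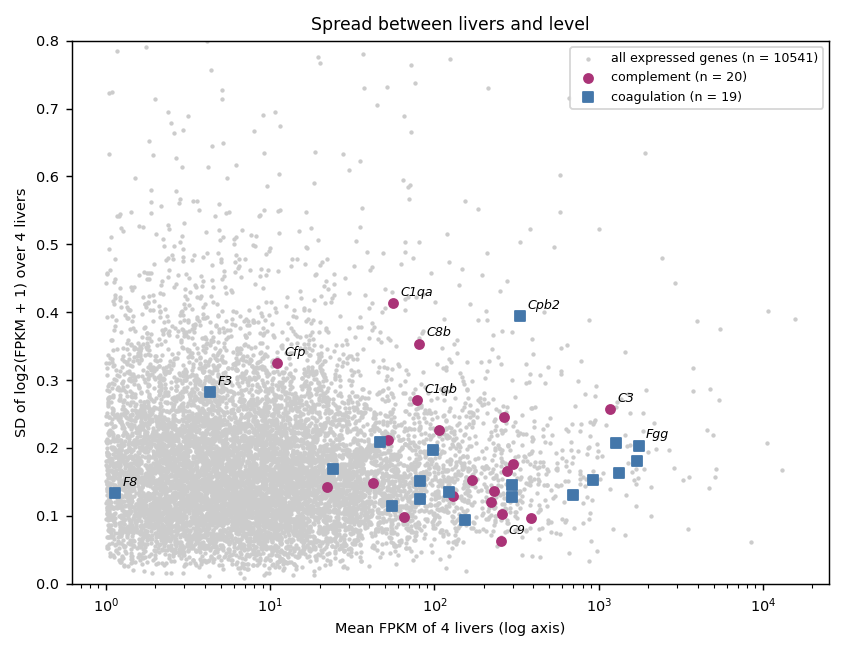
Spread between livers, as the SD of log2(FPKM + 1), against mean FPKM on a log axis, for all 10541 expressed genes (grey), complement members (circles) and coagulation members (squares). C1qa, Cpb2 and C8b have the highest SD of the members and C9 the lowest, and 46 grey genes lie beyond the top of the axis.

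The liver with the highest value differed between members, and the shares over genes of 50 FPKM or more are given beside those over all expressed genes, since 32 of the 39 members lie at that level. Liver 4 was highest for 21 of the 39 members as deposited, against 33.3% of all expressed genes and 53.0% of genes of 50 FPKM or more. When each library was rescaled to the same sum the number was 8, against 15.6% and 23.4%, and with median-ratio scaling it was 15, against 27.1% and 43.5%. Liver 2 was highest for 15 members, against 22.0% of all expressed genes and 16.5% of those of 50 FPKM or more. These 15 were highest in liver 2 under all 3 scalings, which held for 21.8% and 16.4% of the same genes. The number in liver 2 was 21 when rescaled to the same sum, against 28.4% of both sets of genes, and 18 with median-ratio scaling, against 24.9% and 20.8%. Liver 3 was highest for 3 members, against 26.8% and 18.3%, and liver 1 for 0, against 17.9% and 12.2%. With libraries rescaled to the same sum these became 8 for liver 3, against 34.2% and 28.7%, and 2 for liver 1, against 21.8% and 19.5%.

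The lowest value lay in liver 3 for 17 members, against 31.4% of expressed genes and 37.8% of those of 50 FPKM or more. It lay in liver 1 for 14, against 20.7% and 24.6%, and in liver 2 for 8, against 29.9% and 33.8%. Liver 4 was lowest for 0 members, against 18.1% of expressed genes and 3.77% of those of 50 FPKM or more. With libraries rescaled to the same sum it was still lowest for 0, against 33.0% and 13.6%, while liver 1 was lowest for 18 (17.5% and 23.3%), liver 2 for 7 (24.2% and 30.4%) and liver 3 for 14 (25.3% and 32.7%). Relative to the gene means the members had median deviations of -0.13, 0.08, -0.11 and 0.14 on the log2 scale in livers 1 to 4. Over all expressed genes these were -0.01, -0.02, -0.01 and 0.04, and over genes of 50 FPKM or more -0.03, -0.04, -0.06 and 0.12, so that in liver 4 the members lay near other abundant genes. Rescaled to the same sum, the members' medians were -0.11, 0.12, -0.07 and 0.04, with the same signs. Values above the gene's own mean were found for 38 members in liver 4, against 60.8% of expressed genes and 84.2% of those of 50 FPKM or more, and for 23 in liver 2, against 45.1% and 40.4%. They were found for 10 members in liver 3, against 47.0% and 36.2%, and for 6 in liver 1, against 47.2% and 39.4%. With libraries rescaled to the same sum the 38 in liver 4 became 26, against 38.1% and 58.0%, and the 10 in liver 3 became 16, against 55.1% and 45.6%. The 23 in liver 2 became 25, against 51.7% and 47.8%, and the 6 in liver 1 became 7, against 54.0% and 46.8%.

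**Figure D3:**
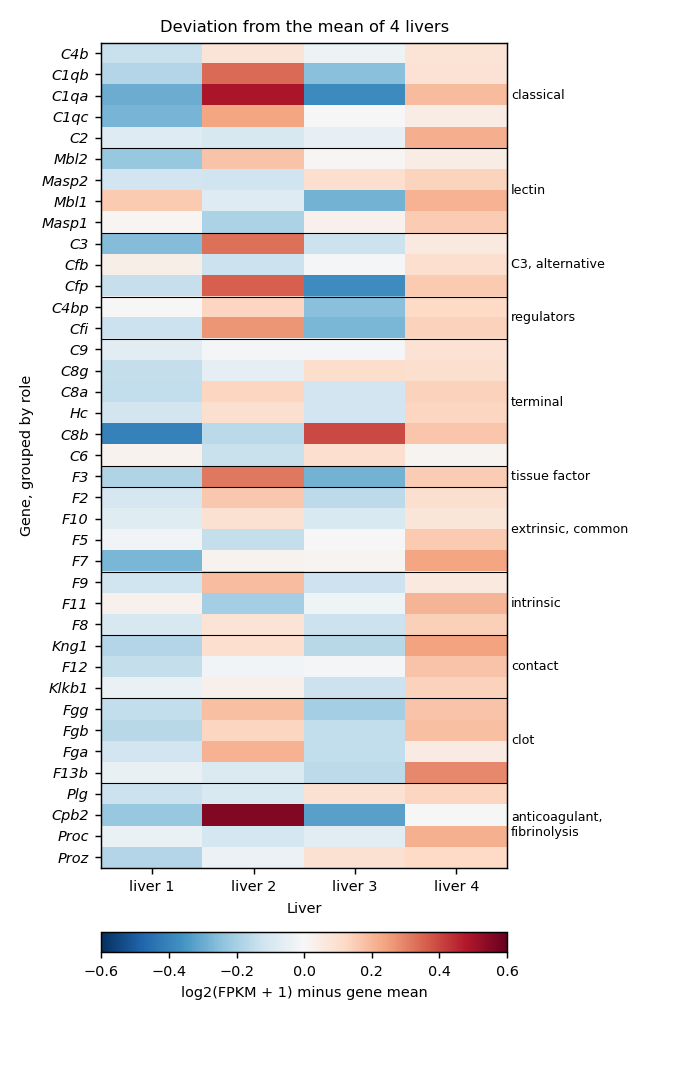
Deviation of log2(FPKM + 1) from the gene's mean over the 4 livers, as colour, for the 39 members in rows and livers in columns. Cpb2 and C1qa have the strongest positive deviations, both in liver 2, and C8b stands out in liver 3.

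Among the initiators of the classical pathway, the C1q chains had the widest range. C1qa was listed at 44.0, 76.8, 41.5 and 62.2 FPKM, a 1.85-fold range. C1qb was listed at 68.6, 98.6, 65.0 and 82.5 FPKM, and its range was 1.52-fold. C1qc, at 42.4, 60.9, 51.6 and 53.2 FPKM, stayed within a 1.44-fold range. All 3 chains were highest in liver 2 under each scaling, whereas the lowest liver was 3 for C1qa and C1qb and 1 for C1qc. The chains are encoded side by side on chromosome 4, within 136880145 to 136898844, and assemble in equal numbers into the C1q molecule. C1qb exceeded C1qa 1.43 ± 0.150-fold (SD, n = 4), and the ratio of C1qc to C1qa ranged from 0.794 in liver 2 to 1.24 in liver 3. In bulk tissue fewer cells of a type and less RNA per cell cannot be told apart. The 9 macrophage and Kupffer cell markers, of which 7 were expressed, summed to 187, 246, 183 and 264 FPKM in livers 1 to 4, and the summed C1q chains were 155, 236, 158 and 198 FPKM. Both sums were higher in livers 2 and 4 than in livers 1 and 3, and the C1q sum was highest in liver 2, whereas the marker sum was highest in liver 4 as deposited and in liver 2 once libraries were rescaled to the same sum. Lyz2 had the largest part of the marker sum, at 114 ± 19.7 FPKM (SD, n = 4). Of the expressed markers only Csf1r was lower in liver 4 (13.4 FPKM) than in liver 3 (14.0 FPKM). Timd4, under 1 FPKM, was highest in liver 1. The part of macrophage number in the C1q values was not tested.

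The later components of the classical pathway varied less. C4b, the precursor whose large fragment binds covalently to targets, had 257 ± 18.2 FPKM (SD, n = 4) with a 1.16-fold range. Its close paralogue C4a was listed at 2.99, 3.44, 8.66 and 2.63 FPKM, and reads of the pair may have been divided unevenly between them. C2, the protease that cleaves C3 once bound to C4b, was listed at 40.0, 39.5, 40.8 and 49.3 FPKM. Its value in liver 4 lay apart from the rest by Dixon's ratio, which compares the gap to the nearest value with the whole range, and as deposited C2 was the only such gene of the 39, against 5.46% of expressed genes. With libraries rescaled to the same sum C2 was no longer apart and F10, Fga and Masp1 were. The share of all expressed genes past the ratio under that rescaling was not computed. Cfb, the C2 counterpart of the alternative pathway, lies 87 bases from C2 on chromosome 17 and had 385 ± 25.4 FPKM (SD, n = 4), 9.12 ± 0.649 times the level of C2. Cfb was lowest in liver 2 under all 3 scalings.

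C3, on which the pathways converge, was the most abundant complement member. It was listed at 967, 1461, 1061 and 1207 FPKM, with liver 2 at 1.21 times the second highest liver and 1.51 times the lowest. The ratio of Cfb to C3 was 0.407, 0.240, 0.360 and 0.341 in livers 1 to 4, lowest in liver 2, where C3 was highest and Cfb lowest. Cfp, which encodes the alternative pathway stabiliser properdin, was listed at 9.70, 14.1, 8.05 and 12.1 FPKM. Like C1qa, Cfp was highest in liver 2 and lowest in liver 3. It rests on about 257 fragments in its lowest liver.

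The lectin pathway members had ranges under 1.5-fold. Mbl2 had 277 ± 31.1 FPKM and Mbl1 106 ± 16.3 FPKM (each SD, n = 4), 2 mannose-binding lectins that recognise microbial sugars. Mbl1 was listed at 117, 99.3, 86.0 and 121 FPKM, lowest in liver 3, while Mbl2 was listed at 235, 310.5, 277 and 285 FPKM, lowest in liver 1, so their ratio ranged from 2.01 in liver 1 to 3.22 in liver 3. Masp2, the protease that cleaves C4 and C2, had 229.9 ± 21.8 FPKM and Masp1, which activates it, 22.3 ± 2.26 FPKM (each SD, n = 4). The span given for Masp2 is shared with Tardbp, at 11.6 ± 1.91 FPKM (SD, n = 4), and strand use in the counting is not stated. The ratio of Masp2 to Masp1 was steady at 10.3 ± 0.683 (SD, n = 4).

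The 2 soluble regulators among the members both had their highest value in liver 2 and their lowest in liver 3. Cfi, a protease that inactivates C3b and C4b, was listed at 239, 314, 216 and 288 FPKM. C4bp, its cofactor for C4b, was listed at 300.4, 328, 252 and 325 FPKM. For C4bp livers 2 and 4 were nearly equal.

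The terminal pathway held both the steadiest member and one of the most variable. C9, which polymerises into the wall of the pore, was listed at 243, 252, 252 and 269 FPKM, with the lowest SD of the 39. C6 had 65.0 ± 4.40 FPKM and Hc, which encodes C5, 130.2 ± 11.8 FPKM (each SD, n = 4). Of the subunits of C8, C8b and C8g had the same order of livers and C8a another. C8b was listed at 59.2, 70.3, 104 and 88.5 FPKM, a 1.76-fold range, with liver 3 highest and liver 1 lowest. C8a, its neighbour on chromosome 4 at a distance of 11131 bases, was listed at 151, 183, 155 and 185 FPKM, with livers 2 and 4 above livers 1 and 3 and the highest value in liver 4, or in liver 2 under the other 2 scalings. C8g, on chromosome 2, was listed at 198, 211, 236 and 234 FPKM. The ratio of C8a to C8b therefore ran from 1.49 in liver 3 to 2.61 in liver 2. The span of C8g is shared with Fbxw5, at 20.0 ± 3.71 FPKM (SD, n = 4).

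On the coagulation side, the starting receptor F3 (tissue factor) was low. It was listed at 3.60, 5.50, 3.28 and 4.80 FPKM, a 1.68-fold range with liver 2 highest, and rests on about 120 fragments in its lowest liver. F7, its protease partner, was listed at 37.8, 46.7, 46.4 and 54.3 FPKM, with liver 1 below the others. F10, which joins the pathways and activates prothrombin, had 153 ± 10.1 FPKM, and its cofactor F5 82.1 ± 7.23 FPKM (each SD, n = 4). F5 was lowest in liver 2 under all 3 scalings, and its span is shared with Gm16548 and Selp. F2, the gene of prothrombin, was listed at 855, 1025, 822 and 980.5 FPKM, livers 2 and 4 lying above livers 1 and 3.

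The genes F7, F10 and Proz follow each other on chromosome 8 (13026034 to 13075006) with 1502 and 4231 bases between their spans. Their orders differed, with F10 highest in liver 2 and F7 and Proz in liver 4, although Proz was highest in liver 3 under the other 2 scalings. The ratio of F10 to F7 ranged from 2.96 in liver 4 to 3.85 in liver 1.

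Of the intrinsic factors, F9 had 81.2 ± 8.74 FPKM (SD, n = 4) and was listed at 74.3, 92.1, 74.0 and 84.4 FPKM. F11, which activates F9, was listed at 24.4, 20.7, 23.5 and 27.8 FPKM, lowest in liver 2 under all 3 scalings. F8, the cofactor of F9, was listed at 0.994, 1.26, 0.953 and 1.36 FPKM, and the ratio of F9 to F8 was 71.9 ± 6.74 (SD, n = 4). At about 182 fragments in its lowest liver, F8 was the least abundant member and the only 1 with single values under 1 FPKM. The 7 endothelial markers, of which 6 were expressed, summed to 56.4, 72.8, 62.1 and 70.4 FPKM in livers 1 to 4. Both the marker sum and F8 were higher in livers 2 and 4, and the part of endothelial cell number in F8 was not tested.

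The contact system was led by Kng1, the precursor of bradykinin, which was listed at 1113, 1350.3, 1119.7 and 1489 FPKM. Its paralogue Kng2 had 176 ± 20.7 FPKM (SD, n = 4), and the ratio of Kng1 to Kng2 was 7.18 ± 0.211 (SD, n = 4). Reads of these similar genes may have been shared between them. F12, the protease that starts the contact pathway, had 298 ± 27.0 FPKM, and Klkb1, the prekallikrein that F12 activates, 55.1 ± 4.45 FPKM (each SD, n = 4). Klkb1 lies 7419 bases from F11 on chromosome 8. The ratio of Klkb1 to F11 was 2.72 in liver 2 and between 2.14 and 2.19 in the other livers.

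Fibrinogen transcripts had the highest levels of the list. Fgg, the gamma chain, was listed at 1570.2, 1973, 1512 and 1956 FPKM. The beta chain gene Fgb was listed at 1525, 1870.4, 1546 and 1939 FPKM. The alpha chain gene Fga, which carries the first site of thrombin cleavage, was listed at 1228, 1535, 1200.0 and 1376 FPKM. Each chain was higher in livers 2 and 4 than in livers 1 and 3. The genes lie on chromosome 3 between 83007896 and 83049790, with 11103 bases between the spans of Fgg and Fga and 8687 between those of Fga and Fgb, and the chains join in equal numbers. The ratio of Fgg to Fgb was 1.02 ± 0.0326 (SD, n = 4), while Fga lay below both, at ratios of Fgb to Fga of 1.29 ± 0.0848 and of Fgg to Fga of 1.31 ± 0.0740 (each SD, n = 4). The Fgg to Fga ratio was 1.42 in liver 4 and between 1.26 and 1.29 in the other livers. F13b, the carrier of the clot-stabilising factor XIII, was listed at 94.2, 91.3, 87.1 and 119 FPKM, with liver 4 above the rest.

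**Figure D4:**
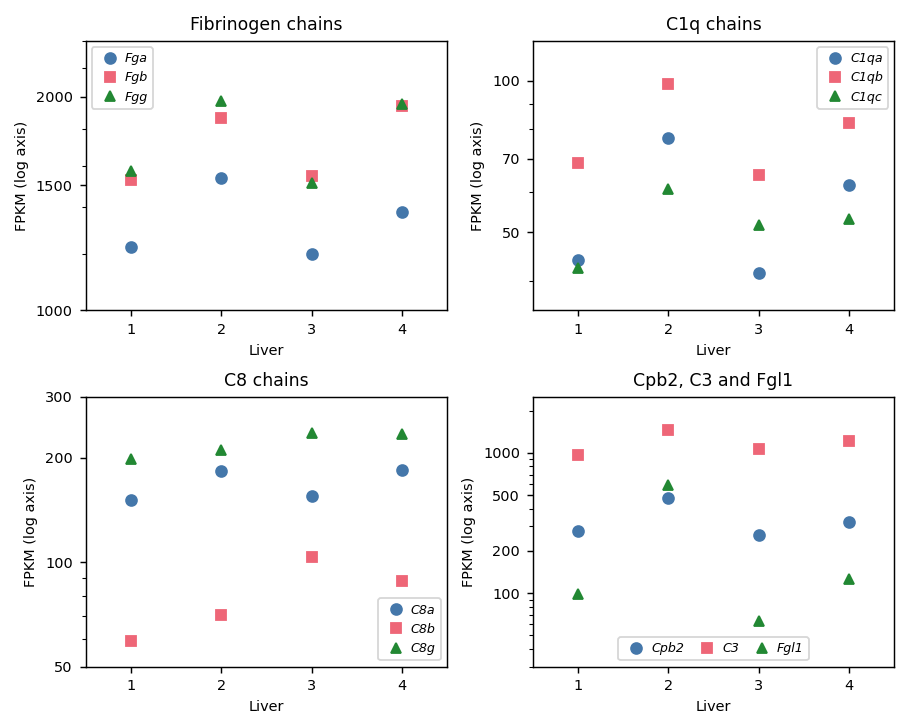
FPKM on log axes in livers 1 to 4 for the fibrinogen chains, the C1q chains, the C8 chains, and for Cpb2, C3 and Fgl1. Fga lies below Fgb and Fgg in each liver, C8b and C8g are highest in liver 3 and C8a in liver 4, and liver 2 is highest for the 3 genes of the last panel.

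Among the genes that restrain clotting or act on the clot, Cpb2 varied most. Cpb2, which encodes a carboxypeptidase that slows the breakdown of fibrin, was listed at 276, 476, 258 and 323 FPKM. Liver 2 exceeded the next liver 1.47-fold, the largest such step among the 39 members. The span deposited for Cpb2 (chromosome 14, 75004110 to 75388146) also covers Lcp1, Zc3h13 and 3 other rows, while the gene itself is annotated at 75242287 to 75283555 in GENCODE M21. Lcp1 was steady at 25.3 ± 1.33 FPKM (SD, n = 4). Plg, the precursor of the fibrin-degrading plasmin, had 701 ± 63.4 FPKM, Proc, the gene of anticoagulant protein C, 297 ± 31.2 FPKM, and Proz, a cofactor in the inhibition of F10, 122 ± 11.3 FPKM (each SD, n = 4). Plg was listed at 639, 655, 745 and 765 FPKM, with livers 3 and 4 above livers 1 and 2, an order unlike that of Cpb2. Proc was lowest in liver 2 under all 3 scalings.

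The values of liver 2 were set beside those of acute phase genes that are not members. Of 20 such genes, 16 were highest in liver 2, against 22.0% of all expressed genes, and their summed level was 7477, 17926, 6229 and 8708 FPKM in livers 1 to 4. Fgl1, a fibrinogen-related hepatocyte product that is also counted among the other coagulation genes, was listed at 98.6, 587, 63.8 and 127 FPKM, and Orm1 at 809.9, 1631, 758 and 812 FPKM. The ratio of liver 2 to the mean of the other 3 livers ran over these 20 genes from 0.905 for Socs3 to 25.7 for Saa2, with 20.3 for Saa1, 7.85 for Lcn2, 6.08 for Fgl1 and 2.06 for Orm1. It was near or under 1 for Saa4 (1.01), Stat3 (0.954) and Il1r1 (0.908). Over the 39 members the same ratio ran from 0.819 for F11 to 1.66 for Cpb2. The next highest were C1qa (1.56), Cfp (1.42), F3 (1.41), C1qb (1.37) and C3 (1.35), and the fibrinogen genes had 1.21 for Fga, 1.17 for Fgg and 1.12 for Fgb. Lowest in liver 2 under all 3 scalings were 7 members, C2, C6, Cfb, F5, F11, Masp1 and Proc, against 23.6% of expressed genes and 29.1% of those of 50 FPKM or more. Neutrophil markers, of which 4 of 5 were found and 2 expressed, summed to 10.4, 18.6, 11.5 and 8.33 FPKM. S100a8, S100a9 and Retnlg were highest in liver 2 and Csf3r in liver 3. Platelet markers summed to 6.62, 12.1, 5.63 and 9.66 FPKM, with Pf4 the only platelet marker of 6 with a mean above 1 FPKM. Of the other platelet markers, Ppbp (0.361, 2.02, 0.275 and 0 FPKM) and Gp1bb were highest in liver 2, Gp9 in liver 4, Itga2b in liver 1 and Treml1 in liver 3. Erythroid markers, of which 2 of 5 were found, summed to 1076, 828.9, 427 and 705 FPKM. Most of this sum came from Hba-a1, whose rows were highest in liver 1 and lowest in liver 3. Alas2 was listed at 55.8, 43.8, 64.0 and 57.0 FPKM, highest in liver 3 and lowest in liver 2. The part of an acute phase response, or of blood cells, in the liver 2 values was not tested.

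Other genes of complement were read from a list of 29, of which 21 were expressed and 9 of the 21 had a ratio of at least 1.5, against 28.3% of all expressed genes. Vtn and Clu, which block pore assembly, had 1549 ± 224 FPKM and 1219 ± 69.4 FPKM, and Serping1, the inhibitor of the C1 proteases, 543 ± 48.1 FPKM (each SD, n = 4). The C1 proteases C1ra and C1s1 had 99.1 ± 11.2 FPKM and 168 ± 9.61 FPKM (each SD, n = 4). Cfd, which cleaves factor B and is made mainly in fat tissue, was listed at 2.81, 0.961, 0.556 and 4.49 FPKM, an 8.09-fold range. The span deposited for Cfd is wide (chromosome 10, 79697305 to 80369637), and which other rows it covers was not examined.

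The receptors of the fragments of C3 and C5 were low. C3ar1, the receptor of C3a, was listed at 1.65, 3.28, 1.89 and 2.63 FPKM. The receptors of C5a were lower, C5ar1 at 1.23, 1.56, 1.08 and 1.58 FPKM and C5ar2 at 0.232, 0.452, 0.520 and 0.287 FPKM. Vsig4, a C3b receptor of Kupffer cells, was listed at 6.38, 8.34, 6.13 and 9.94 FPKM. C3ar1 was highest in liver 2 and Vsig4 in liver 4. Cr2 was listed at 0.0708, 0.0331, 0.0876 and 0.115 FPKM, Cd46 at 0, 0.0704, 0.186 and 0 FPKM and Fcnb at 0.0582, 0.110, 0 and 0 FPKM.

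Other genes of coagulation and fibrinolysis were read from a list of 28, of which 21 were expressed and 6 of the 21 had a ratio of at least 1.5 (28.6%), against 28.3% of all expressed genes. The thrombin inhibitors Serpinc1 and Serpind1 had 903 ± 39.4 FPKM and 231 ± 17.4 FPKM, and the plasmin inhibitor Serpinf2 271 ± 21.1 FPKM (each SD, n = 4). Serpinc1, antithrombin, had about the level of its target, at a ratio of F2 to Serpinc1 of 1.02 ± 0.0818 (SD, n = 4). Vkorc1, which recycles the vitamin K that F2, F7, F9, F10, Proc and Proz need for their activation, was listed at 283, 435, 299 and 422 FPKM, and Ggcx, the carboxylase that uses it, had 16.2 ± 1.26 FPKM (SD, n = 4). Vkorc1 was higher in livers 2 and 4, while Ggcx was higher in livers 1 and 3. Pros1, the cofactor of protein C, had 20.8 ± 2.69 FPKM, and Hrg, a plasma glycoprotein that binds plasminogen and heparin, 828 ± 159 FPKM (each SD, n = 4).

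Several other endothelial and fibrinolytic genes were near or under 1 FPKM. The plasminogen activator genes Plat and Plau were listed at 1.32, 1.54, 0.914 and 0.664 FPKM and at 1.66, 1.77, 0.811 and 1.53 FPKM. Vwf was listed at 0.727, 1.10, 0.674 and 0.548 FPKM and F13a1, the catalytic subunit of factor XIII, at 0.256, 0.160, 0.152 and 0.0912 FPKM, against 97.8 FPKM for its carrier F13b. Thbd had 0.798 ± 0.135 FPKM (SD, n = 4), and A2m was listed at 0.0435, 0.0454, 0.0340 and 0 FPKM.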

How the data were processed

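Gene expression was measured by RNA sequencing of poly(A)-enriched libraries from 4 livers, 1 group. The submitters' processing notes name the mm10 build and list FastQC 0.10.1, Trim Galore 0.6.3, cutadapt, STAR 2.7.6a and Cufflinks 2.2.1, without their settings; the annotation is not given in the sources used here. The authors' deposited values were taken to be FPKM, since they are not whole numbers and carry Cufflinks identifiers. Fragment counts were not used, so no count test was made. Columns were matched to livers by the sample descriptions, with 0 left unmatched, and 1 was added to each deposited start (52.0% of 22565 symbols then equalled the RefSeq start, 3.00% before).

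Expressed means a mean of at least 1 FPKM. Spread is the SD of log2(FPKM + 1). The gap of the highest or lowest liver, relative to the range, was set against the 95% critical value of Dixon's ratio. Dixon's ratio was checked on simulated data in which a large shift had been added to 1 liver of some genes. Smaller shifts were not tried. Depth was estimated from the lowest values of genes with 1 transcript longer than 800 bases in GENCODE M21 and is approximate, as are fragment numbers, which use the longest transcript. Alternatives were libraries rescaled to the same sum, median-ratio scaling, pseudocounts of 0.1 and 5, minimums of 0.1 and 5 FPKM or none, and leaving out each liver. Named genes were all members, with values in every liver for those with a ratio of at least 1.5, past Dixon's ratio or highest by mean and at least 1 of each role. From the other genes of the pathway, receptors, regulators, inhibitors and those with a ratio of at least 2 or at 0 in some livers were named. The members, lists and measures were chosen with earlier results of these data known. Pairs of genes set in ratio were chosen after their values were seen. Protein sequences were not used here, and some genes that this rule names are not reported here. The analysis used Python 3.11.15, pandas 2.3.3 and numpy 2.4.6.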

Additional observations from a re-analysis of the deposited data

Results flagged for a closer look

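Of the members, C2 stood apart by Dixon's ratio, with 49.3 FPKM in liver 4 against 39.5 to 40.8 FPKM in the others. It was 1 of 39 members (2.56%), against 5.46% of all expressed genes, and chance flags about 1 in 20 groups. With each library rescaled to the same sum C2 was no longer apart. Of 22 ratios of genes examined 2 stood apart, at a level where chance flags about 1 in 20: Fgg to Fga was 1.42 in liver 4, above the other livers (1.26 to 1.29), and Klkb1 to F11 was 2.72 in liver 2, above the other livers (2.14 to 2.19). A ratio within a library does not depend on its scaling.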

How the results depend on the processing

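With each library rescaled to the same sum, liver 1 was highest for 2 members in place of 0. Liver 3 was highest for 8 in place of 3 and liver 4 for 8 in place of 21. Past Dixon's ratio were 3 members (F10, Fga and Masp1) in place of 1. The share of all expressed genes past it under this rescaling was not computed. With median-ratio scaling liver 3 was highest for 6, against 29.0% of expressed genes and 21.7% of those of 50 FPKM or more. When a liver was left out, members with a ratio of at least 1.5 numbered 2 to 7, against 16.3% to 22.8% of expressed genes. Members highest in liver 1 numbered 0 to 5. The shares were 24.99% to 29.8% of expressed genes and 14.2% to 32.6% of genes of 50 FPKM or more. Liver 2 was highest for 15 to 24 (27.2% to 34.2%, and 18.8% to 35.4%). Liver 3 was highest for 3 to 10 (31.6% to 35.9%, and 20.0% to 31.95%). Liver 4 was highest for 21 to 36 (40.1% to 44.4%, and 59.9% to 65.7%). A member highest in the liver left out passes to the next liver. The median SD was 0.14 to 0.17 over the members and 0.11 (with a pseudocount of 5) to 0.19 (with 0.1) over all expressed genes, and the median deviations kept their sign in all 4 livers, under every alternative run. Of 312 SDs of single members recomputed, 293 moved by less than the standard error of an SD from 4 values. The 19 that moved more concerned 15 genes, among them F8 (0.23 with a pseudocount of 0.1 and 0.05 with 5) and Cpb2 (0.16 without liver 2). With 1 group no paired analysis was possible because there is no second group to pair. F3 rests on the fewest fragments of the members, about 120 in its lowest liver.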
